A study of Mus musculus with 82 samples.

Results

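The elastic fibre genes described here are 10 rows of the deposited count tables, selected by gene symbol from 55401 genes. They are the elastin gene Eln, the emilin gene Emilin1, the fibrillin genes Fbn1 and Fbn2, the microfibril-associated gene Mfap5, the fibulin genes Fbln1, Fbln2, Fbln5 and Fbln7, and the lysyl oxidase gene Lox. RNA-sequencing was performed on primary aortic vascular smooth muscle cells (aVSMC) of C57BL/6 mice that had been kept for 24 h without serum or supplements and were then incubated with agonists of 3 receptors. EGF activates the EGF receptor, angiotensin II (AngII) the AT1 receptor, and U46619, a stable thromboxane A2 analogue, the thromboxane receptor. The question was how each agonist, alone or combined with another, changed the RNA level of these genes.

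After 24 h incubation there were 7 groups of 6 cultures, one culture per group from each of mice 1 to 6: control, EGF (10 µg/L), AngII (10 nM), U46619 (1 µM), EGF with AngII (EGF+AngII), EGF with U46619 (EGF+U46619) and a combination of the 3 agonists (EGF+AngII+U46619). After 48 h there were 6 groups in 2 batches, which the labels name by their agonists. The EGF/U46619 batch held 5 culture sets from mice 7, 8, 9, 7 and 10, each with a control, an EGF, a U46619 and an EGF+U46619 culture. The EGF/AngII batch held 5 culture sets from mice 7, 7, 10, 7 and 11, each with a control, an EGF, an AngII and an EGF+AngII culture. All cells had been expanded in medium that itself contained EGF, insulin, transferrin, hydrocortisone and serum, so control cultures had met EGF before the supplement-free interval. Mouse numbers are those of the labels, in which several 48 h sets share a number, whereas the study's methods describe replicates as cells of separate mice. Whether a number stands for the same animal throughout the 48 h cultures is not known, and sets that share one may not be independent.

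Elastic fibres give the wall of the aorta its recoil, and smooth muscle cells make most of them during development. Tropoelastin, the product of Eln, is deposited on microfibrils built of fibrillins and microfibril-associated glycoproteins, fibulins and emilin help to place it there, and lysyl oxidases crosslink it. The genes are best known for congenital disease of the aorta and connective tissue, and elastin production is low in the adult wall.

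The 82 libraries held 16483529 to 20818809 counts at 24 h and 19936925 to 33916114 at 48 h. All genes of chromosomes 9, X, Y and MT are listed at 0 in every library, among them the smooth muscle markers Tagln and Cnn1. Acta2, the smooth muscle actin gene, had 1137 to 5121 FPM (counts scaled to library size) in the 24 h controls, whereas Myh11, a marker of contractile smooth muscle, had 2.65 to 94.1 FPM. The summed level of 7 endothelial markers ran from 4.84 to 2155 FPM over the 24 h controls and was highest in mouse 6, with Cdh5 at 0 in all of them. The control library of set 4 in the EGF/AngII batch stood apart from the other libraries of its set, and calls of the 10 genes at 48 h that changed without it are given with both values. Whether it holds a mislabelled culture was not tested. Fewer cells of a type and less RNA per cell cannot be told apart in these cultures.

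Eln lies on chromosome 5 (134702593 to 134747323, minus strand, GRCm38), as does Emilin1 (30913402 to 30921277, plus strand). Fbn1 (125300594 to 125507993, minus strand) and Fbln7 (128862981 to 128897034, plus strand) lie on chromosome 2, and Mfap5 (122505845 to 122529290, plus strand) and Fbln2 (91212455 to 91272540, plus strand) on chromosome 6. Fbln1 lies on chromosome 15 (85205949 to 85286535, plus strand), Fbln5 on chromosome 12 (101746565 to 101819055, minus strand), and Fbn2 and Lox on chromosome 18. All are protein-coding, and every count is a sum over the exons of 1 gene, so that splice forms were not separated.

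In control cultures the 10 genes spanned a wide range of levels. Per kilobase of exon (FPKM), the median over the 6 control cultures at 24 h was highest for Fbln2 at 498 FPKM, which encodes a fibulin of basement membranes and elastic fibres. Lox followed at 225 FPKM, Fbln7 at 113, Mfap5 at 99.8, Fbln5 at 78.3, Emilin1 at 72.6 and Fbn1 at 57.5 FPKM. Eln itself was near the bottom with 7.78 FPKM, above Fbln1 at 3.16 and Fbn2, the fibrillin of embryonic microfibrils, at 0.0600 FPKM. Of the 9 pairs of neighbours in this order, the ranges of 8 overlapped, and Fbln1 and Fbn2 were the pair that did not. At 48 h the order of the medians over 10 control cultures differed mainly in Fbln7, which stood at 30.2 FPKM below Fbn1 at 44.4, and in Fbln5, which followed Lox at 163.9 FPKM. The batches at 48 h differed in both genes. The control median of Fbln7 was 173.4 FPM in the EGF/U46619 batch and 54.7 FPM in the EGF/AngII batch, and that of Fbln5 was 498.9 and 1932 FPM. The 48 h cultures also carry other mouse numbers than those at 24 h.

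Mice differed more in some of these genes than in others. The highest 24 h control exceeded the lowest 47.9 times for Eln, 41.6 times for Fbln1 and 31.4 times for Fbln7. The same ratio was 2.24 for Emilin1, 2.62 for Lox, 3.57 for Fbln5, 3.60 for Fbln2, 4.63 for Mfap5 and 4.66 for Fbn1. Eln was lowest in mouse 3 (4.26 FPM) and highest in mouse 6 (204 FPM), whereas Fbln7 was lowest in mouse 6 (39.8 FPM) and highest in mouse 1 (1247 FPM). The main fits compared cultures within a mouse. At 48 h this means within a mouse number, which several culture sets can share, also across the batches.

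**Figure D1:**
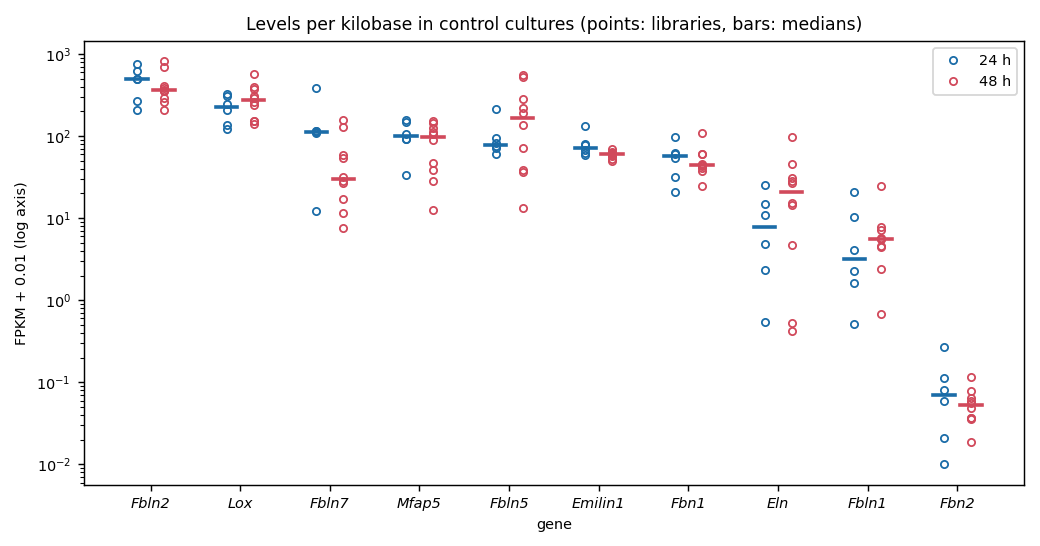
Levels of the 10 genes in control cultures, in FPKM + 0.01 on a log axis, with 6 libraries at 24 h (blue) and 10 at 48 h (red) as open points and the median as a bar. Fbln2 and Lox are highest, Eln, Fbln1 and Fbn2 lowest, and the points of Eln, Fbln1 and Fbln7 are spread most at 24 h.

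A gene was called when its false discovery rate (FDR) was below 0.05 in both edgeR and DESeq2 and its mean reached 5 FPM in a group compared. The fold changes, standard errors (SE) and intervals are edgeR's, from a fit with the mouse as a term. Fold changes are on the log2 scale throughout.

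With U46619 for 24 h, 3 of the 10 genes fell and none rose, where 26.8% of 14528 genes tested were called in either direction and 13.9% were called lower. The 3 were Fbln7, a fibulin known for cell adhesion, Fbln1, a fibulin of elastic fibre cores and basement membranes, and Emilin1, a glycoprotein at the border of elastin and microfibrils. Calls among the 10 were thus near as frequent as among all genes, and the median log2-fold change of the 10 was -0.48 beside -0.06 over all genes. With EGF+U46619, 5 of 10 fell (32.0% of genes called, 15.8% lower), which were the same 3 with Eln and Fbln5. With all 3 agonists the same 5 fell (33.5% called, 15.7% lower). None of the 10 was called higher than control at 24 h in any group. Without the mouse as a term in the model, the calls were 1 of 10 with U46619, 2 with EGF+U46619 and 1 with the 3 agonists. The shares of all genes given above are those of the fit with the mouse term, so they cannot be set beside these counts.

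The 250 bases before and 50 bases after the annotated start are printed for the 3 genes that fell with U46619 alone and for Fbln2, the one that rose at 48 h, so that the starts of genes with opposite changes can be read side by side. They are RefSeq sequences on GRCm38.p6, plus strand, at chr2:128863682-128863981 for Fbln7, chr15:85205758-85206057 for the second of 2 Fbln1 starts in the table, chr5:30913536-30913835 for Emilin1 and chr6:91212514-91212813 for Fbln2. Capitals mark matches on either strand to GGGCGG or GGAATG.
Fbln7: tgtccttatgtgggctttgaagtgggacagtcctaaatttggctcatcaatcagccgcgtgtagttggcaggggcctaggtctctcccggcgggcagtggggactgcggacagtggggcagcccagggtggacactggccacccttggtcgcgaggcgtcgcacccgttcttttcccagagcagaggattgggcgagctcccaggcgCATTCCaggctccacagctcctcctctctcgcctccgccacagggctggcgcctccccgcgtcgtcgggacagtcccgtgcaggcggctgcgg
Fbln1: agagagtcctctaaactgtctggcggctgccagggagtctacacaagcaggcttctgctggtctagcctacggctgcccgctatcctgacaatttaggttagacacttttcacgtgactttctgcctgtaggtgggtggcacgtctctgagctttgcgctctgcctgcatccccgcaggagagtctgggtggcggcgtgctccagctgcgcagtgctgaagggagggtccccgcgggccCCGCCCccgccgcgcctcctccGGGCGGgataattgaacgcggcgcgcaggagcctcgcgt
Emilin1: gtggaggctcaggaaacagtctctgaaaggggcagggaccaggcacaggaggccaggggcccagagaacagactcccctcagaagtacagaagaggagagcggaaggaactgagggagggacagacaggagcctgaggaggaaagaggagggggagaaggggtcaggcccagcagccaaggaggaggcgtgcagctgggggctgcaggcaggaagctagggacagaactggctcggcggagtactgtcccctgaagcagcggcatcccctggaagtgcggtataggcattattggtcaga
Fbln2: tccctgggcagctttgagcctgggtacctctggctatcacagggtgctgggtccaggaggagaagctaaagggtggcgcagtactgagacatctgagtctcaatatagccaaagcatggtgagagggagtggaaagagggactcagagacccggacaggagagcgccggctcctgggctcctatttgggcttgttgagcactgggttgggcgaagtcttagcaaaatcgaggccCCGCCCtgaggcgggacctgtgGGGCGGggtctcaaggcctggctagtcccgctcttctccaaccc

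Of the 10 genes, 6 had such a sequence in the table. The letters GGGCGG, which the factor Sp1 is known to bind, occurred in 35.7% of the 32851 promoters on either strand. They were found in the windows of Fbln1 and Fbln2 and not in those of Fbln7 and Emilin1. The letters GGAATG, the core bound by TEAD factors, occurred in 14.7% of promoters and once in the Fbln7 window, as CATTCC on the strand shown. TATAAA (13.6% of promoters), TGANTCA (7.81%) and the CArG box (1.63%) matched none of the 4 windows. The window of the other Fbln1 start, at chr15:85205699-85205998, overlaps the one printed and matched none of the 5 motifs. The motifs searched do not overlap each other in these windows.

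Fbln7 changed most of the 10 with U46619 at 24 h. In control cultures at 24 h its level was 39.8 FPM in the lowest, 366 in the median and 1247 in the highest culture. With U46619 it was 12.9, 57.8 and 104.5 FPM, and with EGF+U46619 it was 10.5, 34.0 and 48.9 FPM. Each of the 6 mice was lower with U46619, by a log2-fold change of -2.93 ± 0.36 (SE, 95% interval -3.66 to -2.20, edgeR FDR 1.35e-06). With EGF+U46619 the change was -3.64 ± 0.37 (edgeR FDR 6.99e-08), and with EGF+AngII+U46619 it was -3.47 ± 0.37 (edgeR FDR 7.42e-08), both in 6 of 6 mice. The ranges of treated and control cultures overlapped through mouse 6, whose control had 39.8 FPM. The other 5 controls had 353 FPM or more, and no culture of these 3 groups exceeded 104.5 FPM.

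EGF alone lowered Fbln7 as well, by a log2-fold change of -1.88 ± 0.35 (edgeR FDR 0.0127, lower in 6 of 6 mice). It was 1 of 4 genes called with EGF, 0.0275% of those tested, while 2535 of 14528 genes had an unadjusted p below 0.05 in both tools. The study itself reported more genes regulated by EGF at 24 h, and why the counts differ was not tested. The fall of Fbln7 was uneven between mice. Its level with EGF was 0.127 of control in mouse 1, 0.156 in mouse 2 and 0.158 in mouse 3. It was 0.447 of control in mouse 5, 0.589 in mouse 4 and 0.787 in mouse 6. With EGF+AngII the change was -2.0 ± 0.35 (edgeR FDR 0.00660; 3.13% of genes called, 1.59% lower). Both calls were lost when mouse 1, 2, 3 or 5 was left out, with an edgeR FDR of 0.0934 to 0.335 for EGF and 0.0924 to 0.18 for EGF+AngII, while the change stayed between -1.60 and -2.08.

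Adding U46619 to EGF lowered Fbln7 further, by -1.76 ± 0.34 (edgeR FDR 0.000871, 6 of 6 mice). Adding EGF to U46619 gave -0.71 ± 0.34, which was lower in 6 of 6 mice and not called (edgeR FDR 1.00). The interaction of EGF and U46619, that is the difference between the combined change and the sum of the single ones, was 1.17 ± 0.47 for Fbln7 and above 0 in 6 of 6 mice, and was not called either (edgeR FDR 1.00, DESeq2 FDR 0.643). AngII alone left Fbln7 at 0.05 ± 0.33 (95% interval -0.62 to 0.72).

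Eln had the largest spread of responses to U46619 between mice, with an SD of 1.65 on the log2 scale. Its controls at 24 h had 4.26 FPM in the lowest, 63.0 in the median and 204 in the highest culture. With U46619 the values were 0.504, 14.1 and 204 FPM, and with EGF+AngII+U46619 they were 0.671, 5.62 and 108.5 FPM. With U46619 Eln stood at 0.0769 to 0.211 of control in mice 2, 3, 4 and 5, at 0.998 in mouse 6 and at 1.57 in mouse 1, and the groups overlapped.

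Whether Eln was called depended on the mice included. With U46619 alone the log2-fold change was -1.40 ± 0.57 and missed the threshold in edgeR (FDR 0.0545) but not in DESeq2 (FDR 0.0381). Leaving out mouse 1 gave -2.23 (edgeR FDR 0.00528) and leaving out mouse 6 gave -1.57 (edgeR FDR 0.0176), and Eln was called in both, whereas without the mouse as a term the change was -0.35. With EGF+U46619 it fell by 2.09 ± 0.59 (edgeR FDR 0.00516) in 5 of 6 mice, mouse 6 being higher at 1.71 times control. Without the mouse as a term this change was -0.29 (edgeR FDR 0.923). EGF+U46619 against EGF gave -1.34 ± 0.58 (edgeR FDR 0.114), and without mouse 6 it was -2.42 and called (edgeR FDR 0.00231). With all 3 agonists it fell by 2.85 ± 0.60 (edgeR FDR 0.000337) in 6 of 6 mice. With EGF alone every mouse was lower, at 0.540 to 0.722 of control, and the change of -0.75 ± 0.54 was not called (edgeR FDR 0.475).

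Emilin1 fell by less and more evenly. Controls ranged from 290 FPM, with a median of 359, to 650 FPM in mouse 1. U46619 cultures ranged from 174.9 to 390.1 FPM with a median of 241, overlapping the controls, and every mouse was lower (-0.63 ± 0.20, edgeR FDR 0.0135). With EGF+U46619 the change was -0.69 ± 0.20 (edgeR FDR 0.00608) and with the 3 agonists -0.63 ± 0.20 (edgeR FDR 0.0103), each in 5 of 6 mice, mouse 6 being the exception in both. Against EGF, EGF+U46619 gave a change of -0.93 ± 0.20 in Emilin1 (edgeR FDR 0.00179, 5 of 6 mice; 13.0% of genes called in this comparison). Without mouse 5 the U46619 change was -0.57 and no longer called (edgeR FDR 0.0679). Without mouse 1 the call with EGF+U46619 was lost through DESeq2 (-0.58, edgeR FDR 0.0449, DESeq2 FDR 0.0526), and that with the 3 agonists was lost without mouse 1 (edgeR FDR 0.0763) or mouse 5 (edgeR FDR 0.0544).

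The microfibril genes were not called in any comparison at 24 h. Fbn1, which encodes the main fibrillin of adult tissue, had 256 to 1192 FPM in controls, with a median of 697, and 227 to 1208 FPM with U46619, with a median of 649. Its change with U46619 was 0.03 ± 0.28 (95% interval -0.53 to 0.60), made up of 5 mice that were lower and mouse 1, where it was 3.165 times control. With EGF all 6 mice were higher, at 1.03 to 2.63 times control (0.38 ± 0.28, edgeR FDR 0.473). Mfap5, whose product MAGP-2 lies on microfibrils, had 122 to 564.5 FPM in controls and 83.2 to 558 FPM with EGF. It stood at 0.299, 0.495 and 0.683 of control in mice 1, 2 and 3 with EGF and at 0.959 to 1.16 of control in mice 4, 5 and 6 (-0.53 ± 0.20, edgeR FDR 0.163). Fbn2 had 0 to 72 counts in a control library and no more than 3.38 FPM, so that it was below the minimum level for a call. Its log2-fold change with EGF+U46619 was -3.42 ± 0.71 (edgeR FDR 0.000323), resting on 0 to 21 counts per treated library, of which mouse 6 held the most. Fbn2 also changed by -1.90 with U46619, by -3.17 with the 3 agonists and by -2.19 for EGF+U46619 against EGF, each without a call.

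The fibulins differed from each other. Fbln1 had 2.20 FPM in the lowest, 13.8 in the median and 91.6 in the highest control and 0.274, 7.17 and 16.1 FPM with U46619. It was lower in 6 of 6 mice, at 0.180 to 0.6235 of control (-1.68 ± 0.28, edgeR FDR 5.19e-05), and the groups overlapped. The change was -1.43 ± 0.28 with EGF+U46619 (edgeR FDR 0.000157), -1.57 ± 0.28 with the 3 agonists (edgeR FDR 5.17e-05) and -1.16 ± 0.28 for EGF+U46619 against EGF (edgeR FDR 0.00438).

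Fbln5, which ties elastin to cells through integrins and is needed for elastic fibre assembly, had 419 to 1496 FPM in controls with a median of 541. The change with U46619 alone was -0.33 ± 0.25 (edgeR FDR 0.327), with mouse 3 at 1.29 times control and the other mice lower, and without mouse 3 it was called at -0.58 (edgeR FDR 0.0301). With EGF it was lower in 6 of 6 mice, at 0.306 to 0.858 of control, and not called (-0.68 ± 0.25, edgeR FDR 0.15). With EGF+U46619 it fell by 0.77 ± 0.25 (edgeR FDR 0.0155) in 5 of 6 mice, and with the 3 agonists by 1.00 ± 0.25 (edgeR FDR 0.00204) in 6 of 6. The former call was lost without mouse 2 (-0.59, edgeR FDR 0.0807) or mouse 5 (-0.73, edgeR FDR 0.0607).

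Fbln2 differed from the other fibulins in having changes above 0 with U46619. It had 1340 to 4825 FPM in controls and 1598 to 5245 FPM with U46619, was higher in 6 of 6 mice at 1.09 to 1.92 times control, and was not called at 24 h (0.38 ± 0.18, edgeR FDR 0.0988). EGF+U46619 against EGF gave 0.50 ± 0.18, also higher in 6 of 6 mice, with an edgeR FDR of 0.0506 and a DESeq2 FDR of 0.0432. Leaving out mouse 3 brought Fbln2 past the threshold in that comparison (0.55, edgeR FDR 0.0220) and against control with EGF+U46619 (0.53, edgeR FDR 0.0153).

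Lox, which crosslinks elastin and collagen, had 586 FPM in the lowest, 1074 in the median and 1536 in the highest control. With EGF it had 212, 553 and 1094 FPM, and with U46619 805, 1895 and 2198 FPM. With EGF it stood at 0.290, 0.326 and 0.294 of control in mice 1, 2 and 3 and at 1.12, 0.754 and 1.03 in mice 4, 5 and 6, and the change of -0.86 ± 0.31 was not called (edgeR FDR 0.142). With U46619 it was higher in 6 of 6 mice, at 1.23 to 1.89 times control (0.60 ± 0.30, edgeR FDR 0.124), and it was called without mouse 3 (0.67, edgeR FDR 0.0415) and with only these 2 groups in the fit (0.64, edgeR FDR 0.01275). Lox was called in 1 comparison at 24 h, in which EGF+U46619 cultures had 2301, 740, 855, 1223, 1632 and 1561 FPM in mice 1 to 6 where EGF cultures had 336, 212, 451, 655, 1094 and 1021 FPM. There Lox rose by 1.20 ± 0.31 (95% interval 0.58 to 1.83, edgeR FDR 0.00736) in 6 of 6 mice. It was the 1 of the 10 genes called higher in this comparison, while Emilin1, Fbln1 and Fbln7 were called lower. Of all genes tested, 6.79% were called higher there and 6.17% lower. The call was lost without mouse 1 (0.95, edgeR FDR 0.0568) or mouse 2 (1.10, edgeR FDR 0.0654).

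**Figure D2:**
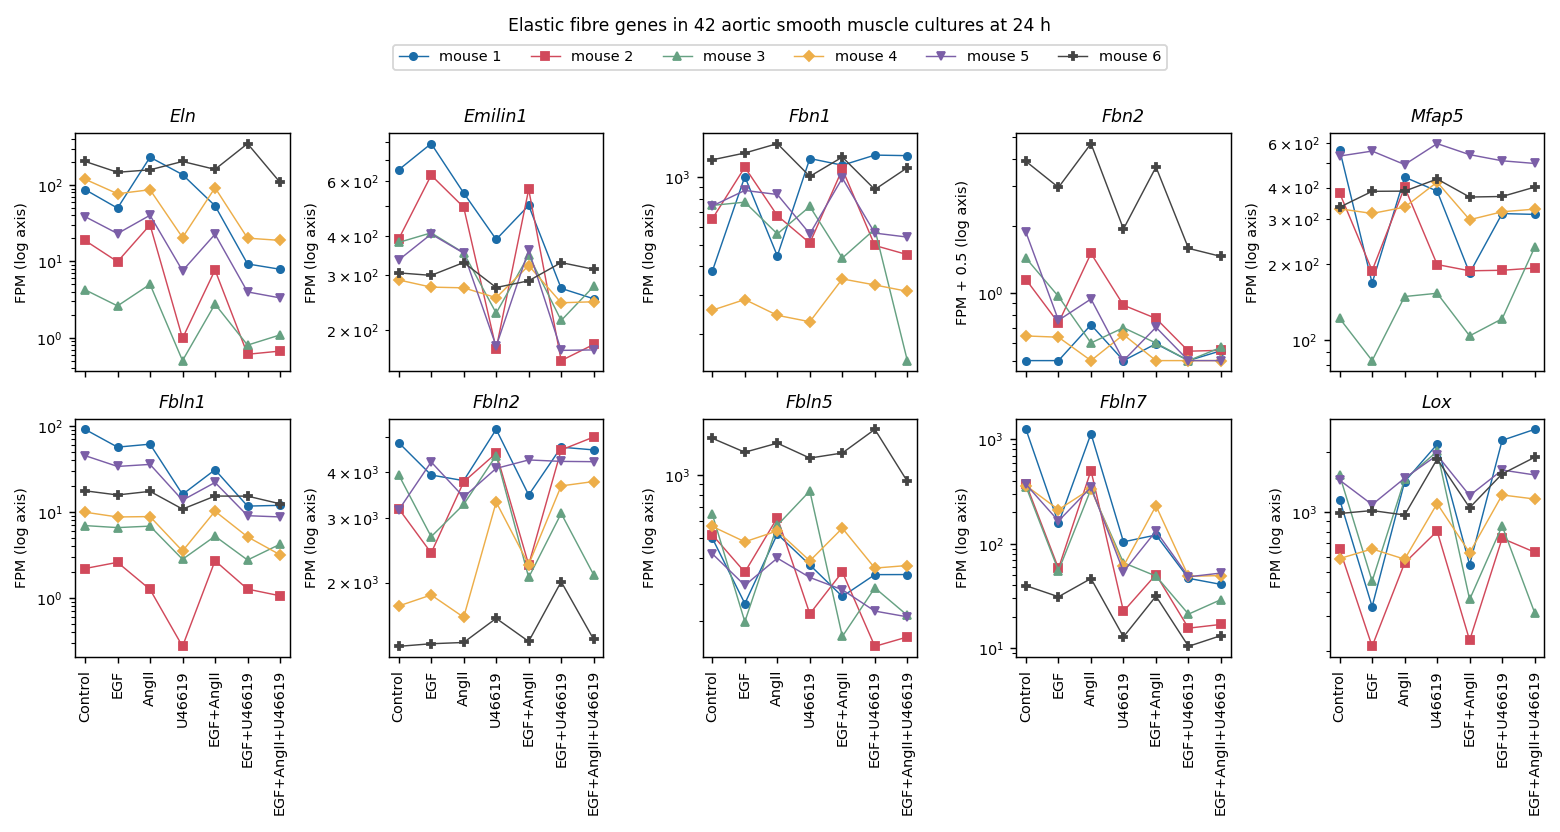
Level of each of the 10 genes in the 42 libraries at 24 h, in FPM on a log axis (FPM + 0.5 for Fbn2), by treatment, with the 7 cultures of a mouse joined by a line. Fbln7 and Fbln1 fall with U46619 in every mouse. Eln falls with U46619 in most mice, but stays near control in mouse 6 and lies above it in mouse 1. Lox is lower with EGF in mice 1, 2, 3 and 5 and is higher with U46619 in all.

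None of the 10 genes was called by edgeR and DESeq2 together, or by DESeq2 alone, with AngII at either time or when AngII was added to EGF or EGF+U46619 at 24 h, and none had an unadjusted p below 0.05 in these comparisons at 24 h. At 24 h the changes with AngII alone ran from -0.66 for Fbn2 to 0.38 for Eln, with a median of -0.01. Among the genes above 5 FPM the widest 95% interval was that of Eln (-0.70 to 1.47). The narrowest was that of Fbln2 (-0.43 to 0.29). Changes of these genes within their intervals remain compatible with the data. EGF+U46619 against U46619 also called none of the 10 at either time, Fbln7 at 24 h being the 1 gene with an unadjusted p below 0.05.

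Patterns over the 42 libraries at 24 h, taken as log2 levels centred on each mouse, placed Pltp (Pearson r 0.974), Fuz (0.964) and Serping1 (0.961) nearest to Fbln7 among 10162 genes. Nearest to Eln were Sfrp1 (0.905), Pdgfrl (0.904) and Zfp523 (0.904), and nearest to Lox were Olfml2b (0.912), Swap70 (0.909) and Ccdc80 (0.890). For Fbln5 they were Fam160a1 (0.895), Aldh1a1 (0.877) and Fgf18 (0.853). These values describe likeness only, since all genes share the libraries.

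After 48 h incubation fewer of the 10 genes were called. With U46619 Fbln7 fell and Fbln2 rose (4.03% of genes tested were called), with EGF+U46619 Eln fell as well (6.84%), and EGF+U46619 against EGF called Fbln7 (4.81%). EGF, AngII and EGF+AngII called none. These calls depended on how cultures were paired. With the culture set as block in place of the mouse, Eln was called with U46619 too (-2.29 ± 0.48, edgeR FDR 0.00190), Fbln1 with EGF+U46619 (-0.71 ± 0.24, edgeR FDR 0.0430), and EGF+U46619 against EGF called 4 of the 10, namely Fbln7, Eln (-1.73 ± 0.47, edgeR FDR 0.0135), Fbln1 (-0.96 ± 0.25, edgeR FDR 0.00787) and Fbln2 (0.47 ± 0.13, edgeR FDR 0.0133). In that fit 1546, 2170 and 1906 of all genes were called in the 3 comparisons. With the batch as a further term beside the mouse, Fbln7 with EGF+U46619 was the 1 call against control (-2.50 ± 0.72, edgeR FDR 0.0440), and none of the 10 was called against EGF. At an unadjusted p below 0.05 in edgeR, 1 of the 10 passed with EGF, 0 with AngII and 0 with EGF+AngII. Of all 14528 genes, 123, 222 and 266 were below 0.05 in both tools, a stricter count. The 1 gene was Eln, at -1.44 ± 0.69 with EGF (edgeR FDR 1.00), lower in 9 of 10 sets, and without the control library of EGF/AngII set 4 it was -0.44 ± 0.57 (edgeR FDR 1.00).

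Fbln7 in the controls of EGF/U46619 sets 1 to 5 had 87.2, 190.5, 507, 173.4 and 103 FPM. With U46619 the same sets had 21.8, 29.0, 48.0, 44.1 and 19.1 FPM, and with EGF+U46619 18.6, 17.2, 43.8, 47.0 and 8.67 FPM. Both treated groups lay below all 5 controls of the batch. The controls of the EGF/AngII batch, which also enter the fit, had 24.35 to 413.8 FPM with a median of 54.7, and overlapped the treated groups. The fitted changes were -2.55 ± 0.71 (edgeR FDR 0.0324) and -2.81 ± 0.72 (edgeR FDR 0.0132), and that against EGF was -2.59 ± 0.72 (edgeR FDR 0.0296). In the EGF/U46619 batch alone they were -2.53 ± 0.34 (edgeR FDR 0.000421), -2.91 ± 0.34 (edgeR FDR 7.40e-05) and -1.93 ± 0.33 (edgeR FDR 0.00279), and Fbln7 was called in each, as it was without the control library of EGF/AngII set 4. With batch as a further term the U46619 change was -2.24 and not called (edgeR FDR 0.1025). The edgeR FDR for U46619 ranged up to 0.136 when single sets were left out, the call being lost without EGF/U46619 set 1, 2, 3 or 4 or EGF/AngII set 5. That for EGF+U46619 was lost without EGF/U46619 set 2 (edgeR FDR 0.0532) or 3 (edgeR FDR 0.0739), and that against EGF without set 1, 2, 3 or 5 (edgeR FDR 0.0589 to 0.107).

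Fbln2 had 2244, 5254, 1861, 4460 and 2331 FPM in the controls of these sets and 3591, 6447, 5162, 5495 and 3258 FPM with U46619. Every set was higher, while the ranges overlapped. The fitted change was 0.79 ± 0.23 (95% interval 0.33 to 1.25, edgeR FDR 0.0376) with U46619 and 0.74 ± 0.23 (edgeR FDR 0.0398) with EGF+U46619. Both calls were near the threshold. In the EGF/U46619 batch alone the changes were 0.61 (edgeR FDR 0.0761) and 0.56 (edgeR FDR 0.0877), and without the control library of EGF/AngII set 4 they were 0.75 (edgeR FDR 0.0570) and 0.70 (edgeR FDR 0.0605). Leaving out 1 set took away the U46619 call in 7 of 10 cases, with an edgeR FDR of up to 0.170 without EGF/U46619 set 3, and the EGF+U46619 call in 6 of 10, with up to 0.1755 without the same set.

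Eln in the controls of EGF/U46619 sets 1 to 5 had 249.8, 37.9, 124, 116 and 3.35 FPM. With U46619 it had 267.9, 7.44, 16.3, 15.1 and 1.13 FPM and with EGF+U46619 210.2, 3.40, 8.99, 11.2 and 0.843 FPM. Set 1, from mouse 7, stayed near its control, although set 4, labelled with the same mouse, did not. The fitted change with U46619 was -2.62 ± 0.93 and missed the threshold in edgeR (FDR 0.0937, DESeq2 FDR 0.0167), and without EGF/U46619 set 1 it was -4.40 (edgeR FDR 0.0184). Without the control library of EGF/AngII set 4 the U46619 change was -1.82 ± 0.73 (edgeR FDR 0.153). With EGF+U46619 the change was -3.17 ± 0.96 (edgeR FDR 0.0355), and the call was lost in the EGF/U46619 batch alone (-2.09, edgeR FDR 0.0929) and without the control library of EGF/AngII set 4 (-2.36, edgeR FDR 0.0506). It was also lost without EGF/U46619 set 2, 3 or 4 or EGF/AngII set 2, with an edgeR FDR of 0.0675 to 0.135.

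The other 7 genes were not called at 48 h in the fit with the mouse as a term. Lox was higher with U46619 in 5 of 5 sets (0.47 ± 0.33, 95% interval -0.20 to 1.15, edgeR FDR 0.403), and Emilin1 was lower in 5 of 5 (-0.26 ± 0.13, edgeR FDR 0.232). Fbln1 was lower in 4 of 5 sets (-0.66 ± 0.44, edgeR FDR 0.376). Without the control library of EGF/AngII set 4 these changes were 0.40, -0.24 and -0.63, none of them called. Fbln5 had a fitted change of -0.86 ± 0.56 with U46619 (edgeR FDR 0.363) although 3 of 5 sets were higher, and in the EGF/U46619 batch alone the change was 0.15 ± 0.35 (edgeR FDR 0.812). Without that control library it was -0.26 ± 0.42 (edgeR FDR 0.773).

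The control library of EGF/AngII set 4 differed from its set in several of the 10 genes. It had 3604 FPM of Fbln5 where the EGF, AngII and EGF+AngII cultures of the set had 652.5, 635 and 748 FPM. It had 372 FPM of Eln beside 27.7 to 39.0 FPM, 103 FPM of Mfap5 beside 520 to 563 FPM and 37.6 FPM of Fbln7 beside 303 to 579 FPM. Its deviations from the group means correlated with those of the other libraries of its set at r -0.284 to -0.277, where the other 3 correlated with each other at 0.862 to 0.912. Its endothelial marker sum of 2306 FPM stood beside 301.3 to 318.8 FPM in its set and lay near the 2184 to 2470 FPM of the EGF, AngII and EGF+AngII cultures of set 2. The control library of set 2 stood apart from its own set as well, at r 0.524 to 0.545 where the others correlated at 0.888 to 0.931, with a macrophage and leukocyte marker sum of 239.2 FPM beside 44.17 to 44.97 FPM. None of the 10 was called with EGF, AngII or EGF+AngII in the fits with the control of set 4 or without it.

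**Figure D3:**
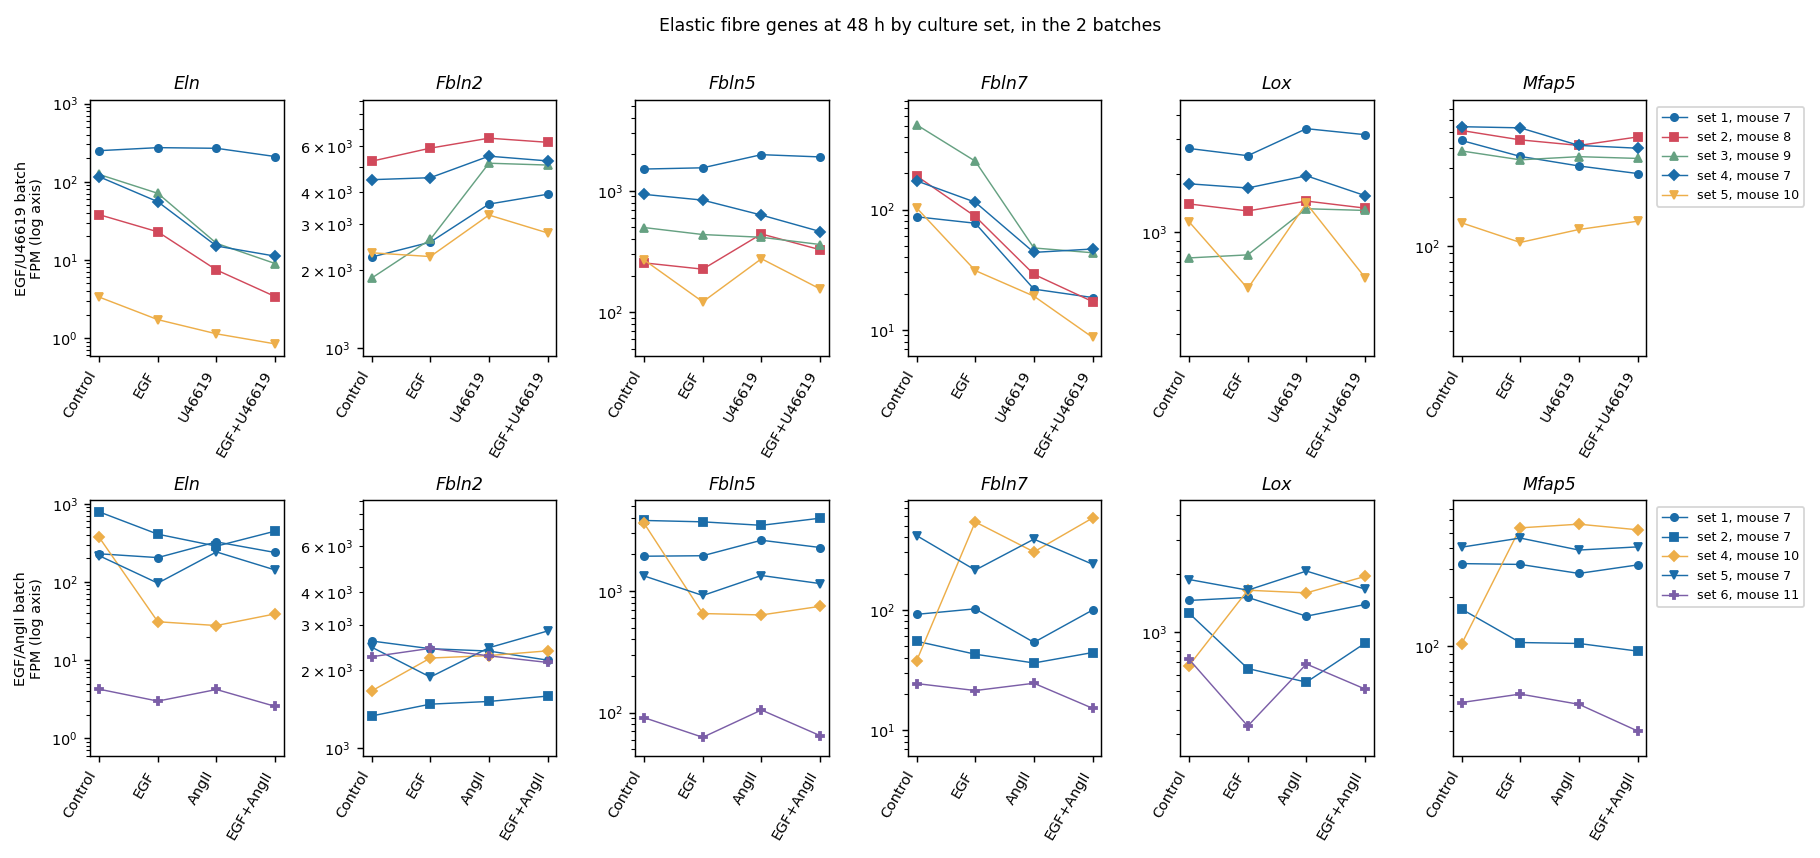
Level of 6 of the 10 genes at 48 h in FPM on a log axis, with the EGF/U46619 batch in the upper row and the EGF/AngII batch in the lower row. Lines join the 4 cultures of a set and colours mark the mouse. Fbln7 is lower with U46619 in all 5 sets, and the control of EGF/AngII set 4 (yellow diamonds) lies apart from its set.

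Cell type markers moved with U46619 beside these genes. At 24 h 12.9% of all genes tested were called higher with U46619 and 13.9% were called lower. Of 8 adventitial fibroblast markers tested at 24 h, 6 fell and none rose, and their summed level went from 588 to 969 FPM in controls (median 675) to 224 to 677 FPM (median 312). Pdgfra, a receptor of fibroblasts, fell by 0.98 ± 0.21 (edgeR FDR 0.000603). Fbln1, Fbln2 and Mfap5 are also known from adventitial fibroblasts, and of these Fbln1 fell, and Fbln2 and Mfap5 were not called. Of 8 smooth muscle markers tested, 4 rose and none fell, with a summed level of 2176 to 9524 FPM in controls and 5900 to 20900 FPM with U46619. None of 6 endothelial markers was called, and their sum was 3.02 to 1965 FPM with U46619. Macrophage and leukocyte markers summed to 21.9 to 117 FPM in controls and 24.5 to 81.0 FPM with U46619, with 1 of 4 called higher and 2 lower. Mouse 6, in which Eln and Emilin1 changed least with U46619, had the highest endothelial sum. In mouse 1, whose control had the lowest endothelial sum, 4.84 FPM, Eln was above control with U46619. With EGF+U46619 and with the 3 agonists at 24 h, 6 and 7 fibroblast markers fell and none rose, while 2 and 3 smooth muscle markers rose and 1 fell in each. Of all genes, 15.8% and 15.7% were called lower in these groups and 16.2% and 17.7% higher. At 48 h 2 of the 8 fibroblast markers fell with U46619 (1.55% of all genes called lower), and the list had a median change of -1.13. No smooth muscle or endothelial marker was called there, and the fitted endothelial median was -1.65. In EGF/U46619 sets 1 to 5 the endothelial sum was 976, 133, 147.8, 229 and 19.92 FPM in controls. With U46619 it was 893.6, 123.7, 109.8, 225.2 and 16.24 FPM. The fit also drew on the EGF/AngII controls, which had up to 2319 FPM. With EGF+U46619 at 48 h, 2 fibroblast markers and 1 smooth muscle marker fell (3.01% of all genes called lower). The fitted endothelial median was -1.55 with none called, while the sums in EGF/U46619 sets 1 to 5 were 1006, 123.8, 107.3, 255.5 and 8.468 FPM. The part of these cell types in the changes of the elastic fibre genes was not tested.

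Further genes of elastic fibre assembly, processing and turnover were listed by function: 42 names, of which 41 were in the files, 4 were listed at 0 and 33 were tested. With U46619 at 24 h, 6 of the 33 rose and 11 fell (26.8% of all genes called), and the median change was -0.33. With EGF+U46619, 5 rose and 13 fell (32.0%), with the 3 agonists 6 rose and 13 fell (33.5%), and with EGF+AngII none rose and 3 fell (3.13%). With EGF and with AngII alone, edgeR and DESeq2 together called none of the 33, and DESeq2 alone called 1 with EGF. Of the 33, 10 and 0 had an unadjusted p below 0.05 in edgeR. Over all genes, 2535 and 62 had one in both tools, a stricter count.

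Among the components of microfibrils and elastic fibres in that list, Mfap4 fell most with U46619 at 24 h, from a mean of 14.1 to 1.92 FPM (-2.80 ± 0.43, edgeR FDR 2.42e-05), and was lower in 6 of 6 mice. Efemp1, which encodes fibulin-3, fell by 1.5 ± 0.38 (edgeR FDR 0.00278), from 239.5 to 105 FPM. The latent TGF-beta binding proteins, which dock on fibrillin, divided: Ltbp3 fell by 0.77 ± 0.17 (edgeR FDR 0.000790), whereas Ltbp1 rose by 0.92 ± 0.26 (edgeR FDR 0.00720), from 109 to 174.9 FPM, in 6 of 6 mice. Adamtsl4, which binds fibrillin-1, fell by 0.83 ± 0.27 (edgeR FDR 0.0170).

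Among receptors and enzymes, Itgav, the alpha v chain of integrins that bind fibrillin and fibulin-5, rose by 0.83 ± 0.17 (edgeR FDR 0.000433), from 122 to 221 FPM, in 6 of 6 mice. Tll1, a protease of the family that activates Lox, had a change of 1.51 ± 0.42 (edgeR FDR 0.00542) and was higher in 5 of 6 mice. The elastin-degrading cathepsin Ctsl was not called with U46619 alone and fell by 0.67 ± 0.14 with EGF+U46619 (edgeR FDR 0.000286), in 5 of 6 mice. At 48 h Itgav rose again with U46619 (0.65 ± 0.13, edgeR FDR 0.00433), and 2 of the 33 genes rose and 1 fell (4.03% of all genes called), where EGF+U46619 gave 2 and 3 (6.84%).

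**Figure D4:**
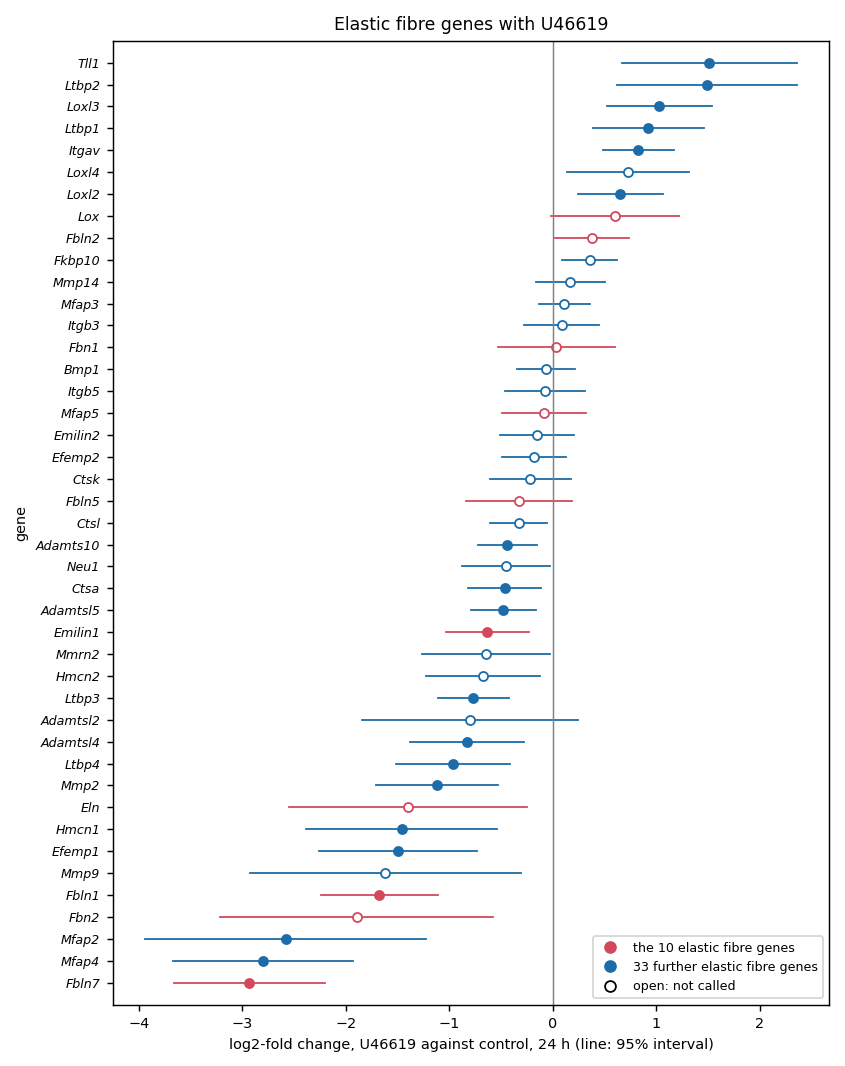
Fitted log2-fold change with U46619 at 24 h for the 10 elastic fibre genes (red) and 33 further genes (blue), with 95% intervals as lines. Filled points were called. Fbln7 and Mfap4 lie at the lower end and Tll1 at the upper end, with Lox and Fbln2 among the uncalled genes above 0.

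**Figure D5:**
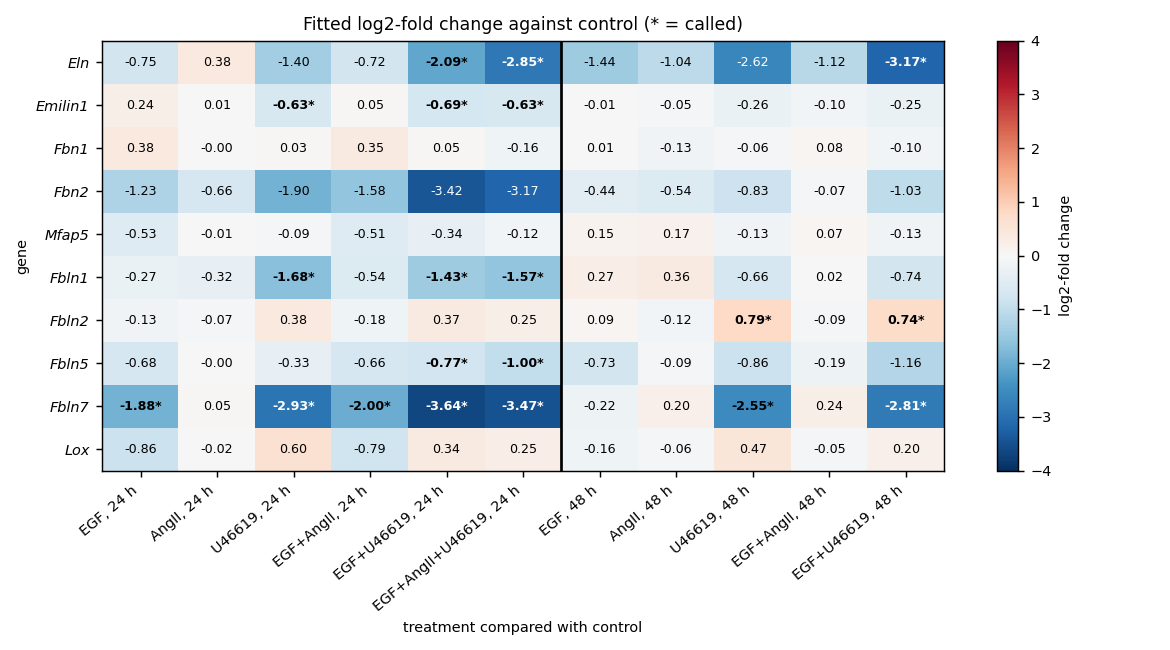
Fitted log2-fold changes of the 10 genes against control for 6 treatments at 24 h (left of the line) and 5 at 48 h (right), in colour and figures. Asterisks mark calls, and Fbn2 was below 5 FPM in all groups. Fbln7 is the gene called most often, in 5 columns at 24 h and 2 at 48 h, and Fbln2 the one called higher than control.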

How the data were processed

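Gene counts of 82 poly(A)-selected, paired-end libraries were analysed, 42 at 24 h and 40 at 48 h. The deposited values are raw counts per gene, which the authors made with HISAT2 2.1.0 on mm10 and featureCounts over exons, multi-mapping reads included. Counts were fitted per time point with edgeR 4.0.16 (TMM, filterByExpr, quasi-likelihood test) and DESeq2 1.42.0 (Wald test) in R 4.3.3, with mouse and treatment as terms and all groups of a time point in 1 fit. SE and 95% intervals come from edgeR. P-values were adjusted over all genes by the Benjamini-Hochberg method. A gene was called at FDR below 0.05 in both tools, with a mean of 5 FPM in a group compared and tested at both times. FPM are edgeR's CPM with TMM-scaled library sizes, and FPKM are FPM per kilobase of merged exons (GENCODE M21).

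The replicate number at 24 h names the mouse of the culture. Cultures of a mouse deviated together in 126 of 126 pairs at 24 h (correlation of deviations from the group means above 0.1, lowest 0.395) and in 57 of 60 at 48 h (lowest -0.284). No libraries were identical. Named genes were the 10 members, at most 8 further elastic fibre genes in order of lowest edgeR FDR against control, and the 3 genes most like Eln, Lox, Fbln7 and Fbln5 by Pearson r of log2(FPM + 0.5) centred on mice, among genes with a mean of at least 5 FPM. The members and lists were chosen with earlier results of these data known. The alternatives tried were other size factors, no low-count filter, no mouse term, only the groups compared, 1 tool alone, no FPM minimum, each mouse or culture set left out and, at 48 h, the culture set as block, a batch term and each batch alone. The scripts were tested on simulated data.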

Additional observations from a re-analysis of the deposited data

Results flagged for a closer look

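Of 130 groups of levels and 25 groups of changes, each of 4 to 10 values, tested with Dixon's criterion, 17 held a library far from the others of its group, all of them levels, where chance gives about 1 in 20. Mouse 6 at 24 h held 8 of them. Its Fbln5 level was 1496 FPM in the control (others 419 to 647.5), 1418 FPM with AngII (399 to 624) and 1651 FPM with EGF+U46619 (150.9 to 358). Its control had 39.75 FPM of Fbln7, where the others had 353 to 1247 FPM. Its Fbn2 level was 2.471 FPM with EGF, 3.165 with EGF+AngII, 1.087 with EGF+U46619 and 0.9601 with the 3 agonists, where the other mice reached at most 0.468 FPM.

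Other mice stood apart in single genes at 24 h. Mouse 1 had 650.3 FPM of Emilin1 in the control (others 290 to 391). Mouse 4 had 285.2 FPM of Fbn1 with EGF (773 to 1278). Mouse 3 had 122.0 FPM of Mfap5 in the control (330.2 to 564.5) and 148.8 FPM with AngII (335 to 493.5).

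At 48 h EGF/U46619 set 2 was high in Fbn1, with 1671 FPM with EGF (others 398.5 to 813), 1124 FPM with U46619 (478 to 590.0) and 1043 FPM with EGF+U46619 (463 to 565). EGF/U46619 set 5 had 126.4 FPM of Mfap5 with U46619 (311 to 416), and EGF/AngII set 2 had 1515 FPM of Fbln2 with AngII (2271 to 2441).

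The 100 pairs of conditions were examined for changes that all rose in a condition and all fell in the other. This was met by 1 pair, that of Fbn1 with EGF. Pairs opposed in only part of their mice or sets were not counted. Fbn1 was higher in all 6 mice at 24 h (mean log2 change 0.4488) and lower in all 5 EGF/AngII sets at 48 h (-0.2841). The EGF/U46619 batch at 48 h did not share this fall, with a median of 541.8 FPM in controls and 587.8 FPM with EGF. Over both batches 6 sets were lower and 4 higher, and the fitted change was 0.0063 ± 0.1342. The EGF/AngII changes rest in part on the controls of sets 2 and 4, which stood apart from their sets. The difference between 24 h and the EGF/AngII batch was not tested.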

How the results depend on the processing

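The 25 calls among the 10 genes (19 at 24 h, 6 at 48 h) were examined under 373 alternatives in all, of which 288 kept the call, 85 lost it and 0 changed sign. The alternatives of 1 tool alone and of no FPM minimum applied a looser rule to the main fit. They could not remove a call and are counted among those that kept it. The calls of Fbln7 with U46619, EGF+U46619 and the 3 agonists at 24 h were kept under every alternative run. Without the replicate block, that is without pairing cultures by mouse, members called at 24 h numbered 0 with EGF, 1 with U46619, 0 with EGF+AngII, 2 with EGF+U46619, 1 with the 3 agonists and 0 for EGF+U46619 against EGF, and 0 in each of the 3 comparisons at 48 h that had calls. The 33 further genes then gave 3, 0, 5, 6 and 0 calls at 24 h (U46619, EGF+AngII, EGF+U46619, 3 agonists, EGF+U46619 against EGF) and 0 at 48 h. With only the groups compared, members called were 0 with EGF and 0 with EGF+AngII at 24 h, and 1, 1 and 0 at 48 h (U46619, EGF+U46619, EGF+U46619 against EGF); the further genes gave 0 with EGF+AngII, 9 with the 3 agonists and 4 against EGF at 24 h, and 1 and 0 at 48 h with EGF+U46619 against control and EGF. At 48 h, in the same order, a batch term gave 0, 1 and 0 members and 1, 3 and 1 further genes, and the EGF/U46619 batch alone gave 1 and 1 members against control and 8, 12 and 6 further genes. The culture set as block gave 4 members against EGF and 10, 11 and 11 further genes. Without the control library of EGF/AngII set 4, chosen after seeing the data, 1 member was called with U46619 and 1 with EGF+U46619. Without the low-count filter 1 member was called with U46619 at 48 h, and the further genes gave 1 with EGF at 24 h and 3 with EGF+U46619 at 48 h. DESeq2 alone gave 1 further gene with EGF and 6 with EGF+AngII at 24 h and 5 with U46619 at 48 h. The cause of these shifts was not tested. The shares of all genes called under these alternatives are not given here, so the shifts cannot be read as particular to the elastic fibre genes. Leaving out 1 mouse or set gave 0 to 1 members with EGF, 2 to 5 with U46619, 0 to 1 with EGF+AngII, 4 to 6 with EGF+U46619, 4 to 6 with the 3 agonists and 3 to 5 against EGF at 24 h, and 0 to 2, 0 to 3 and 0 to 1 at 48 h. The further genes gave 0 to 1, 12 to 17, 0 to 6, 16 to 21, 15 to 22 and 3 to 12 at 24 h, and 1 to 4, 1 to 7 and 1 to 4 at 48 h.

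U46619 and AngII each occur in 1 batch at 48 h, several 48 h sets share a mouse number, and Fbn2 had too few counts for a call. Counting included multi-mapping reads, and exon lengths for FPKM come from another annotation release than the counts.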
